A study of Mus musculus with 6 samples.

Results

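Interferon-stimulated genes are the transcripts that cells raise when interferon reaches them, and 37 of them were followed here in sorted mouse osteocytes with and without estrogen receptor alpha (ERα, encoded by Esr1). The members were taken from a list of gene names. Each was read by a probe set annotated to that gene alone, and the brightest probe set was taken where a gene had several. Of the 37 genes, 35 had such a probe set and 32 lay above the level filter, among 18193 genes with a probe set and 10916 above the filter in all. For Isg15 and Ifi44 no single-gene probe set was found in the annotation used, and Stat2, Dhx58 and Oas3 fell under the filter, so these 5 members entered no test.

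RNA of calvarial osteocytes was measured on 6 Affymetrix arrays, 3 per genotype. The knockout mice are labelled as lacking ERα specifically in osteocytes (ERαΔOcy/ΔOcy), and the controls as wild-type littermates, while the extraction protocol names ERα flox/flox mice. All mice carried Dmp1-GFP, a green fluorescent protein under the promoter of the osteocyte matrix gene Dmp1, and are labelled female C57/BL6 animals of 10 to 12 days. Sutures were removed, and cells from fractions 4 to 6 of 6 digestions of 30 min were sorted by fluorescence, with 10% to 15% of cells falling in the gate in marked mice and 0.8% to 1.0% in unmarked ones. The sources used here do not name the driver of the deletion or say whether controls carried Cre. The protocol speaks of pooled calvarial tissue and the design of unpooled RNA. If tissue was shared between arrays, p-values measure a spread that may be partly technical.

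Type I interferons, with interferon beta (Ifnb1) among them, bind a receptor made of Ifnar1 and Ifnar2. The kinases Jak1 and Tyk2 then activate a factor complex that holds Stat2 and Irf9 and binds the interferon-stimulated response element in promoters. Interferon gamma acts through another receptor and on a shorter element called GAS. The induced proteins bind or degrade viral RNA, block virus assembly, or prepare peptides for T cells. In bone, interferon beta is known as a brake on osteoclast formation.

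The deposited signals are linear, with array medians from 18.7 to 28.6. They were analysed as log2(signal + 16) after quantile normalisation, so differences of dim genes are understated. Control arrays resembled each other less (Pearson's r across the tested genes from 0.939 to 0.969) than knockout arrays did (0.984 to 0.988). Control replicates 1 and 2 stood apart in content. Control replicate 2 had almost no skeletal muscle RNA (summed signal of 15 muscle markers 208, against up to 40609 in another control), and control replicate 1 was low in macrophage and leukocyte markers, with values given beside the results below. Dmp1, whose promoter drives the sorting label, had log2 levels from 12.41 to 12.97 on the arrays. By their mean over all arrays 9 of 10 osteocyte markers passed the filter. This does not show each of them on every array, and Mepe had a signal of 14.3 on control replicate 2. Esr1 differed by -0.20 ± 0.12 (SE), and the deleted part of the gene is not given, so it does not check the labels.

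Interferon-stimulated genes lay lower in the knockout arrays for 30 of the 32 tested members, where 51.7% of all genes did, by a median log2 difference of -0.39 against -0.01 for all genes, and none passed the test. By limma with Benjamini-Hochberg adjustment over all genes, 0 members were lower and 0 higher at an adjusted p under 0.05. The share of all genes called was 0% in each direction, and adjusted p of the members ran from 0.315 to 0.960. At an unadjusted p under 0.05 there was 1 lower member, Parp9, where 4.69% of all genes were lower, and 0 were higher, where 5.85% of all genes were. All 3 knockout arrays lay below all 3 control arrays for 2 members, Parp9 and Eif2ak2, against 7.76% of all genes, and above them for none, against 9.23%.

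The members moved together from array to array, and more within the control group than between the groups. Their range over the 6 arrays had a median of 1.61 on the log2 scale, against 0.48 for all genes. It was above 1 for 27 members and above 2 for 12. The median SD was 0.83 among control arrays and 0.37 among knockout arrays, while for all genes these were 0.18 and 0.12. The SD was larger in control arrays for 30 of the 32 members and for 67.6% of all genes.

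Control replicate 1 was the lowest of the 6 arrays for 27 of the 32 members, against 19% of all genes. Control replicate 3 was the highest for 24, against 18.1% of all genes, and control replicate 2 was the highest for 7 more. Irf9 was the 1 member that peaked on a knockout array. For 22 members all 3 knockout arrays lay above control replicate 1 and below control replicates 2 and 3, an order found in 3.7% of all genes. With each member centred on its own mean, the mean over members gave control values of -0.80, 0.54 and 0.86 and knockout values of 0.15, -0.26 and -0.49, each in the order of replicates 1, 2 and 3 that is kept from here on. The knockout values lay inside the span of the controls.

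**Figure D1:**
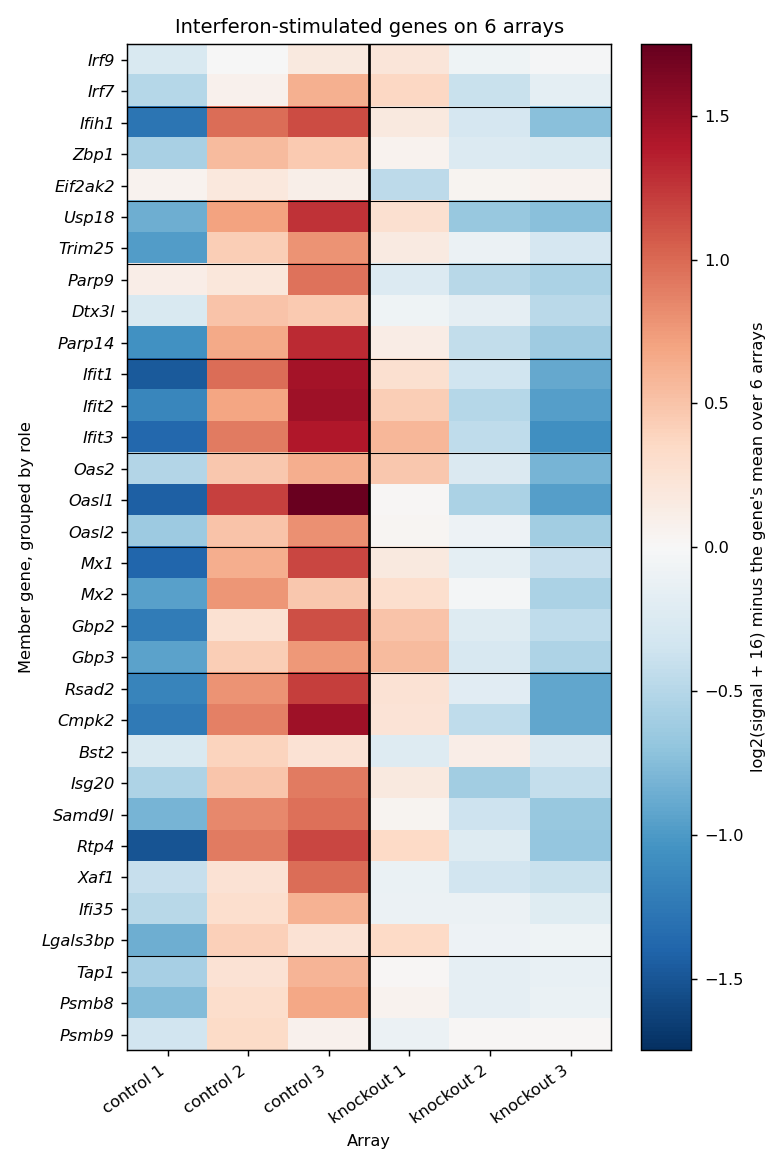
Log2(signal + 16) of each of the 32 tested members on each array, centred on the gene's mean over the 6 arrays (colour, log2 units), with rows grouped by role and the vertical line between control and knockout arrays. Control replicate 1 is the lowest array for 27 members and control replicate 3 the highest for 24.

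Because control replicate 1 lay under the knockout arrays and the other controls above them, the difference between genotypes depended on which control was left out. Without control replicate 1, all 32 members were lower in knockout arrays, with a median of -0.81. Groups were separated for 27 of them, where 14.7% of all genes were separated in that direction, and 24 had an unadjusted p under 0.05, where 6.18% of all genes did. The 27 include by construction the 22 members whose knockout arrays all lay between control replicate 1 and the other controls. No member and no other gene passed the adjusted threshold in that fit, and the smallest adjusted p of a member was 0.142. Without control replicate 3 the median was -0.10, and 10 members were higher and 22 lower. Without control replicate 2 it was -0.21, and without knockout replicates 1, 2 and 3 it was -0.55, -0.37 and -0.24. The number of members with separated groups stayed at 2 in each of these other 5 fits, where the shares of all genes were 18% and 14.3% without control replicates 2 and 3, and 11.5%, 11.9% and 11.8% without knockout replicates 1, 2 and 3. It could not fall below 2, because groups separated on all 6 arrays stay separated when 1 is left out. In each of these 5 fits 1 member, Parp9, was lower at an unadjusted p under 0.05 (limma) and 0 were higher. The share of all genes at that p was not counted for these fits. In all 6 fits 0 members passed the adjusted threshold. Without control replicate 2, 1.88% of all genes passed as lower and 0.788% as higher, and in the other 5 fits 0% did.

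**Figure D2:**
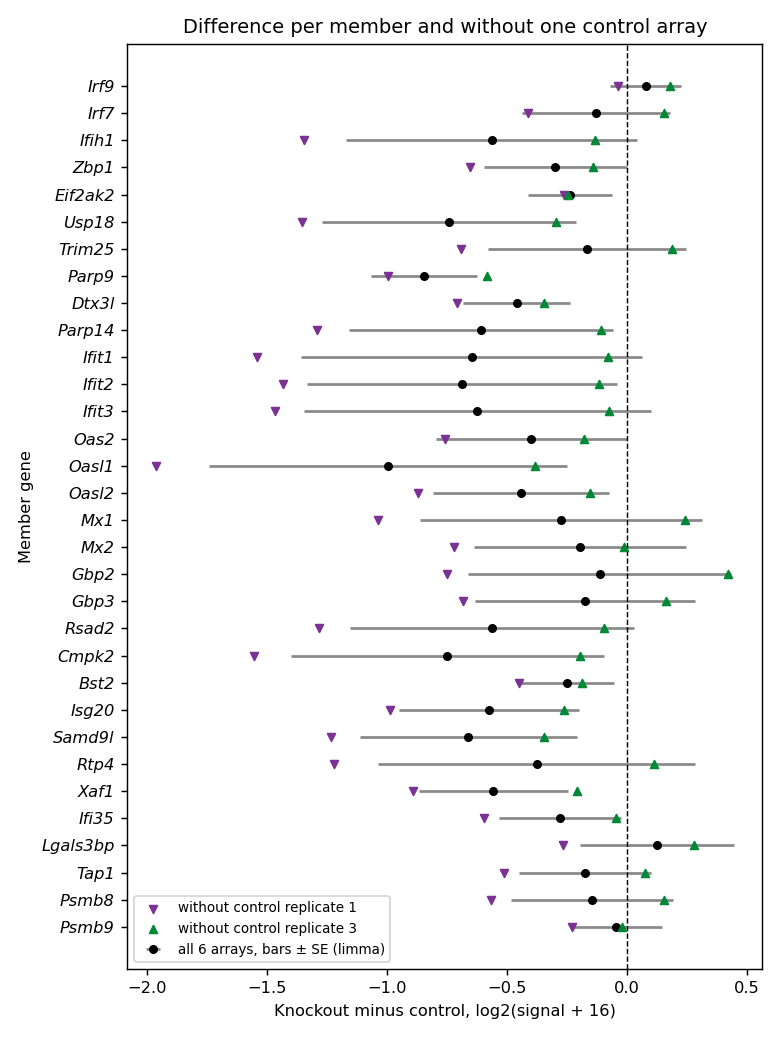
Knockout minus control difference of each tested member in log2(signal + 16), for all 6 arrays (black points, bars ± SE from limma), without control replicate 1 (downward triangles) and without control replicate 3 (upward triangles). The triangles lie on either side of most points: the median is -0.81 without control replicate 1 and -0.10 without control replicate 3.

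The promoters of the members were read from RefSeq (GRCm38.p6) as windows of 300 bases, 250 before the gene start and 50 after it. They were searched on both strands for the core of the interferon-stimulated response element, taken as GAAA, any 2 bases and GAAA again, and for TTCNNNGAA, the GAS pattern, which reads the same on both strands. Windows were found for 28 of the 37 members. The core was present in 11 of their 33 windows (33.3%), against 3.44% of all 32851 windows, and the GAS pattern in 6 (18.2%), against 8.30%. In the 6 tested members with the core upstream of the start, the stretches around it show the element, which occurs more than once in Ifit1, Ifit3, Gbp3 and Bst2. Matches are in capitals, and read as TTTC repeats where the element lies on the opposite strand of the gene:
Ifit1, chr19:34640760-34640838, plus strand: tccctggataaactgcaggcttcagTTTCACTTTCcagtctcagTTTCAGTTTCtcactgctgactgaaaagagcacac
Ifit3, chr19:34583348-34583441, plus strand: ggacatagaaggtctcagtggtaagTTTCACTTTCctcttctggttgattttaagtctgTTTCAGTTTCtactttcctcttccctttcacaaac
Gbp2, chr3:142620579-142620638, plus strand: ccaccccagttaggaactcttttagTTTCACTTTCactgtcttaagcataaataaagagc
Gbp3, chr3:142559974-142560039, plus strand: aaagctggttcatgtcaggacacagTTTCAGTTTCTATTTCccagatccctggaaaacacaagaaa
Rsad2, chr12:26456538-26456597, minus strand: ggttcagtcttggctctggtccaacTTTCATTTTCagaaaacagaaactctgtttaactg
Bst2, chr8:71537562-71537627, minus strand: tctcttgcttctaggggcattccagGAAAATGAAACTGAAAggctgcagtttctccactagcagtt

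Ifit1 and Ifit3 each held 2 separate copies, while in Gbp3 and Bst2 2 matches overlapped in a single run. In Bst2 a GAS match also overlapped the first of them. Over the tested members with a window, the median range over the 6 arrays was 2.36 on the log2 scale for the 8 with the core and 1.40 for the 16 without, and their median differences between genotypes were -0.41 and -0.36. The 8 include Ifih1 and Eif2ak2, whose core lies only after the start. They also include the genomic neighbours Ifit1 and Ifit3, and Gbp2 and Gbp3. A link between the core and these values was not tested. A match is a description of these letters, and a window without a match says nothing about binding elsewhere.

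**Figure D3:**
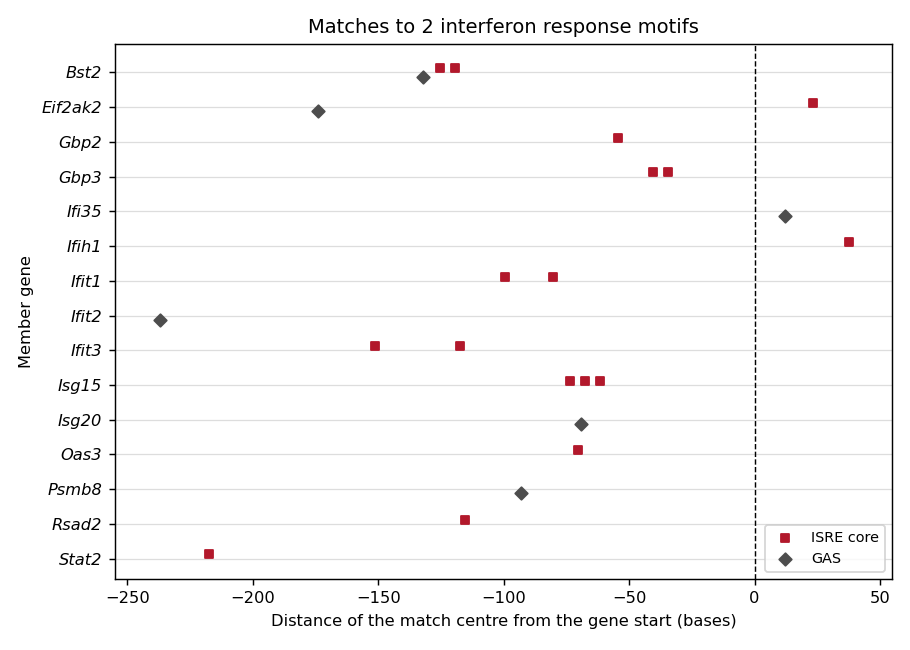
Position of matches to the core of the interferon-stimulated response element (ISRE core, squares) and to the GAS pattern (diamonds) in the promoter windows of the members with a match, as the distance in bases of the match centre from the gene start (dashed line). Of 28 members with a window, 9 have the core before the start and 2 only after it.

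Stat2 and Irf9 belong to the factor that drives these genes, and Irf7 then raises further interferon production. Log2 levels of Irf9 were 6.56, 6.81 and 6.99 in controls against 7.04, 6.75 and 6.81 in knockouts. These overlapping groups differed by 0.08 ± 0.15 (SE, limma adjusted p = 0.884). Irf7 had 5.83, 6.40 and 6.96 in controls and 6.70, 5.93 and 6.17 in knockouts, a difference of -0.13 ± 0.31 (SE, limma adjusted p = 0.910), with the deposited scaling 0.01. Control replicate 1 was the lowest array for both factors. Stat2, under the filter, had deposited signals of 21.7, 17.3 and 24.4 in controls and 21.1, 17.3 and 26.2 in knockouts, near the array medians.

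Among sensors of viral nucleic acid, Ifih1 encodes MDA5, a detector of long double-stranded RNA. Its levels were 7.84, 10.10 and 10.26 in controls and 9.29, 8.82 and 8.39 in knockouts. The knockout arrays lay between control replicate 1 and the other controls, at -0.56 ± 0.61 (SE, limma adjusted p = 0.781), and at -1.34 without control replicate 1. Eif2ak2, the kinase PKR that halts translation when it binds double-stranded RNA, had 5.91, 6.03 and 5.94 in controls and 5.38, 5.89 and 5.90 in knockouts. The groups did not overlap on this scale, but knockout replicates 2 and 3 lay just under control replicate 1, and the difference of -0.24 ± 0.17 (SE, limma adjusted p = 0.665) was -0.06 without knockout replicate 1. Before normalisation the groups overlapped, with signals of 46.7, 45.1 and 39.4 in controls and 25.2, 40.3 and 56.6 in knockouts, and they overlapped for the other 2 probe sets of the gene, which differed by -0.05 and -0.20. Zbp1, a sensor of Z-form nucleic acid, differed by -0.30 ± 0.30 (SE). Dhx58, a relative of MDA5 known as LGP2, was under the filter with signals from 7.1 to 46.5.

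The IFIT proteins, which bind viral RNA ends and block its translation, varied more than most members. Ifit1 had deposited signals of 318, 1626 and 2073 in controls, against 1019, 651 and 579 in knockouts. On the log2 scale its levels were 8.31, 10.77 and 11.25 against 10.07, 9.44 and 8.89. Control replicates 1 and 3 differed 7.62-fold, while the group means differed by -0.65 ± 0.71 (SE, limma adjusted p = 0.785). Ifit2 followed the same order of arrays, with 7.95, 9.79 and 10.58 in controls and 9.52, 8.60 and 8.14 in knockouts, a difference of -0.69 ± 0.65 (SE, limma adjusted p = 0.745). Ifit3 differed by -0.62 ± 0.72 (SE). Without control replicate 1 the median of these 3 genes was -1.47, and without control replicate 3 it was -0.08.

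Oligoadenylate synthetases make the second messenger that switches on RNase L, and the OAS-like proteins are relatives that act on sensors and factors of the interferon response. Oasl1, a repressor of Irf7 translation, had the largest difference of the tested members. Its levels were 7.65, 10.28 and 10.81 in controls and 9.10, 8.53 and 8.12 in knockouts. Control replicate 1 again lay under all knockout arrays, so the groups overlapped, at -1.0 ± 0.75 (SE, limma adjusted p = 0.673). Without control replicate 1 the difference was -1.96 ± 0.29 (SE, limma adjusted p = 0.142). Oasl2 and Oas2 differed by -0.44 ± 0.37 and -0.40 ± 0.40 (SE). Oas3 was under the filter, with signals of 25 at most.

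Ubiquitin-like modification by Isg15 is removed by the protease Usp18, which also blocks signalling at Ifnar2, while Trim25 is the ligase that activates RIG-I. Usp18 had 5.81, 7.37 and 7.92 in controls and 6.94, 6.01 and 5.93 in knockouts, a difference of -0.74 ± 0.53 (SE, limma adjusted p = 0.656). Knockout replicates 2 and 3 were near control replicate 1. Trim25 had 7.53, 8.93 and 9.29 in controls and 8.66, 8.39 and 8.20 in knockouts, a difference of -0.17 ± 0.41 (SE, limma adjusted p = 0.913), which was 0.01 without control replicate 2 and 0.19 without control replicate 3.

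Parp9 and Dtx3l form an ADP-ribosylating ubiquitin ligase of the interferon response, and Parp14 is a larger relative. Parp9 was the member with the smallest p. Its signals were 234, 218 and 352 in controls and 166, 134 and 170 in knockouts, with no overlap. The log2 levels of 7.89, 7.97 and 8.72 against 7.53, 7.29 and 7.22 gave a difference of -0.85 ± 0.22 (SE, limma adjusted p = 0.315), 1.80-fold lower in knockout arrays. Unlike most members Parp9 was not lowest on control replicate 1. Its difference was -1.0 without that array and -0.58 without control replicate 3. Its groups, separated on all arrays, stay separated by construction when an array is left out, so that separation is no further test. Dtx3l differed by -0.46 ± 0.22 and Parp14 by -0.61 ± 0.55 (SE), both with overlapping groups.

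Mx and GBP proteins are large GTPases that trap virus particles or coat the vacuoles of intracellular pathogens. In C57BL/6 mice the Mx1 gene carries a deletion and encodes no working protein, so its transcript serves here only as a readout of induction. Mx1 had 5.56, 7.58 and 8.12 in controls and 7.12, 6.78 and 6.55 in knockouts, a difference of -0.28 ± 0.59 (SE, limma adjusted p = 0.897) that was 0.24 without control replicate 3. Gbp2 had 6.63, 8.12 and 8.98 in controls and 8.36, 7.63 and 7.40 in knockouts. Knockout replicate 1 lay above control replicate 2. Gbp2 differed by -0.11 ± 0.55 (SE, limma adjusted p = 0.960), with 0.03 under the deposited scaling and 0.42 without control replicate 3. Mx2 and Gbp3 differed by -0.20 ± 0.44 and -0.17 ± 0.46 (SE).

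Rsad2 encodes viperin, an enzyme that makes a chain-ending nucleotide against viral polymerases, and its neighbour Cmpk2 supplies the nucleotide precursor. Rsad2 had deposited signals of 1555, 5423 and 6658 in controls and 4096, 2844 and 2233 in knockouts. All knockout arrays lay between control replicate 1 and the other controls, and the log2 difference was -0.56 ± 0.59 (SE, limma adjusted p = 0.777). Its 3 probe sets differed by -0.77, -0.51 and -0.56. Cmpk2 differed by -0.75 ± 0.65 (SE).

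Xaf1, a promoter of apoptosis, had 6.87, 7.52 and 8.24 in controls and 7.15, 6.94 and 6.87 in knockouts, a difference of -0.56 ± 0.31 (SE, limma adjusted p = 0.568). Knockout replicate 3 and control replicate 1 had nearly the same level. The other effectors spread from -0.66 ± 0.45 for Samd9l, which restricts viral translation, and -0.57 ± 0.37 for the RNA exonuclease Isg20, through -0.38 ± 0.66 for the receptor chaperone Rtp4 and -0.28 ± 0.25 for Ifi35, to -0.25 ± 0.20 for Bst2, the tether of budding virions, and 0.13 ± 0.32 for the secreted glycoprotein Lgals3bp (SE). Of these 9 effectors 8 were lower and 1 higher, and none passed the test.

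The 3 antigen processing genes had a median difference of -0.15. Tap1, a subunit of the peptide transporter of the endoplasmic reticulum, had 6.15, 6.98 and 7.32 in controls and 6.74, 6.58 and 6.60 in knockouts, a difference of -0.18 ± 0.28 (SE, limma adjusted p = 0.857) that was 0.08 without control replicate 3. The knockout arrays were tightly grouped, with an SD of 0.09 against 0.60 among controls. Psmb8 and Psmb9, subunits of the immunoproteasome, differed by -0.15 ± 0.34 and -0.05 ± 0.19 (SE).

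Of the members, 8 had more than 1 probe set above the filter. For 7 of these genes every such probe set had the same sign of difference. The exception was Ifi35, whose probe sets differed by -0.28, -0.18 and 0.12.

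Members also lie side by side in the genome. In the gene table of RefSeq, 19 of the 37 members fall into 8 groups whose genes are within 100 kb of the next: the 3 Ifit genes, Parp14 with Dtx3l and Parp9, Psmb9 with Tap1 and Psmb8, and the pairs Rsad2 and Cmpk2, Mx1 and Mx2, Gbp3 and Gbp2, Oasl2 and Oasl1, and Oas2 and Oas3. The windows of Psmb9 and Tap1, which face opposite ways on chromosome 17, share 275 bases. Such neighbours may share regulatory sequence and are not independent of each other.

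Interferon beta itself was read on every array and followed the order of the members. Of 21 interferon genes listed, 10 had a probe set of a single gene and only Ifnb1 passed the filter. Ifnb1 had deposited signals of 312, 1419 and 1897 in controls, against 1260, 601 and 592 in knockouts. Control replicate 1 was the lowest array and control replicate 3 the highest, with all knockout arrays between control replicate 1 and control replicate 2. The log2 levels of 8.29, 10.57 and 11.10 against 10.38, 9.32 and 8.92 gave a difference of -0.45 ± 0.71 (SE, limma adjusted p = 0.858), which was -1.30 without control replicate 1 and 0.11 without control replicate 3. The other 9 interferon genes, Ifng and the interferon alpha genes among them, had signals between 0.5 and 32.7 on all arrays.

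**Figure D4:**
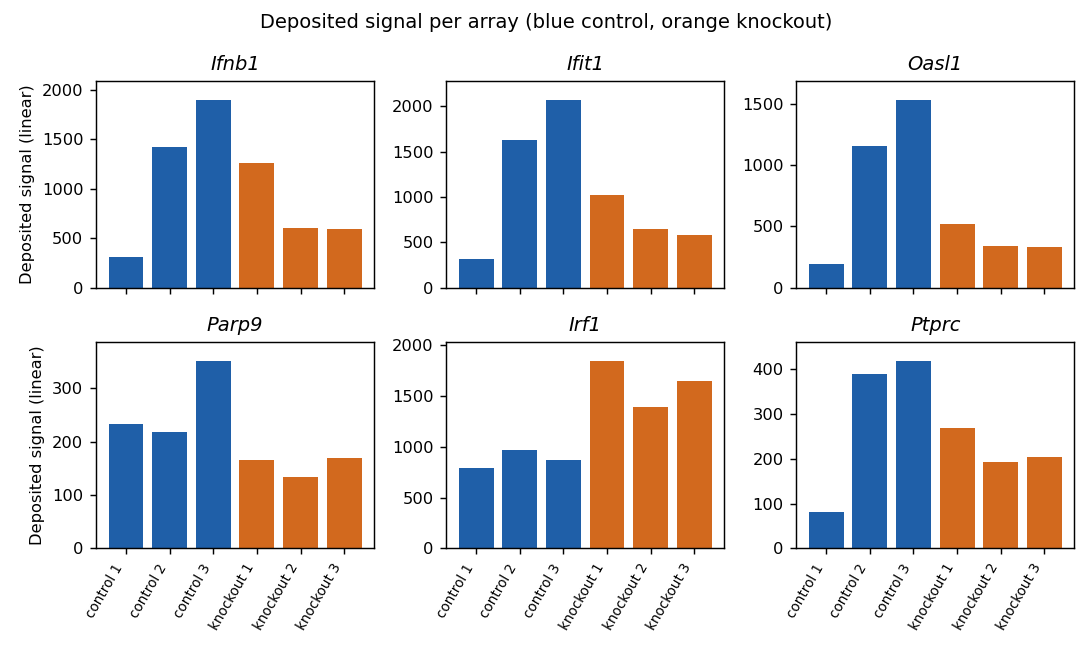
Deposited linear signal on each array for Ifnb1, the members Ifit1, Oasl1 and Parp9, the factor Irf1 and the leukocyte gene Ptprc (bars from 0, blue control, orange knockout, 1 bar per array). Ifnb1, Ifit1, Oasl1 and Ptprc are lowest on control replicate 1 and highest on control replicate 3, Parp9 is lower and Irf1 higher on all knockout arrays.

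Receptors and kinases of the pathway varied far less. Of 9 tested genes 5 were higher and 4 lower, none past the test, with a median of 0.02 and a list level between -0.15 and 0.13 on all arrays. Ifnar1 had 6.96, 7.29 and 6.86 in controls and 7.30, 7.25 and 7.23 in knockouts, a difference of 0.22 ± 0.13 (SE, limma adjusted p = 0.591). Ifnar2 differed by -0.16 ± 0.16, Ifngr2, a chain of the interferon gamma receptor, by -0.29 ± 0.20, and Stat3 by 0.18 ± 0.15 (SE). Of 10 upstream sensors and adaptors, 9 lay lower and 1 higher (median -0.14), none past the test. Tlr3 differed by -0.25 ± 0.16, the adaptor Myd88 by -0.20 ± 0.13, and the DNA sensor Ifi204 by -0.53 ± 0.42 (SE).

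Irf1, a factor induced by interferon gamma and by inflammatory signals, went the other way from the members. Its signals were 793, 973 and 876 in controls and 1850, 1393 and 1653 in knockouts, with no overlap. The log2 difference was 0.72 ± 0.17 (SE, limma adjusted p = 0.274), 1.64-fold higher in knockout arrays, and it did not pass the test. Among 7 tested interferon regulatory factors and their partners outside the member list, 3 were higher and 4 lower, with a median of -0.06. Irf2, an antagonist of Irf1, differed by -0.28 ± 0.15 and the corepressor Irf2bp2 by 0.38 ± 0.13 (SE), each with separated groups. With Irf1, 2 of the 7 genes were separated upward and 1 downward, where 9.23% and 7.76% of all genes were.

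Of 9 negative regulators of the pathway, 8 lay higher and 1 lower (median 0.08), where 51.7% of all genes lay lower, and none passed the test. Under the deposited scaling their median was 0.23, where that of all genes was 0.14. Socs3 and Socs1, inhibitors of JAK kinases, had separated groups, at 0.42 ± 0.13 and 0.36 ± 0.13 (SE, limma adjusted p = 0.377 and 0.416). The share of all genes separated upward was 9.23%. The phosphatase Ptpn1 differed by 0.21 ± 0.15 (SE).

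A longer list of type I interferon-induced genes outside the members showed the same arrays at the extremes with smaller differences. Of its 40 tested genes 27 were lower and 13 higher, with a median of -0.15 and none past the test. Control replicate 1 was the lowest array for 27 and control replicate 3 the highest for 26. Groups were separated for 4 lower genes, among them Nmi (-0.42 ± 0.14) and Azi2 (-0.28 ± 0.09), and for 1 higher gene, the scramblase Plscr1 (0.42 ± 0.12, SE). Of all genes 7.76% were separated downward and 9.23% upward.

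Of 16 tested interferon gamma-induced genes 11 lay lower and 5 higher (median -0.26), and control replicate 1 was the lowest array for 11. The groups were separated upward for 4 of them: Irf1, Socs1, the guanylate-binding GTPase Gbp6 (0.92 ± 0.34) and the adhesion molecule Icam1 (0.92 ± 0.37, SE), the last named after its values were seen. Of the 16 genes 0 were separated downward, and of all genes 9.23% were separated upward and 7.76% downward. Of 13 MHC class I genes outside the members 7 lay higher and 6 lower (median 0.02). B2m, the light chain of MHC class I, had 11.93, 12.56 and 12.33 in controls and 12.27, 12.26 and 12.28 in knockouts, a difference of -0.01 ± 0.15 that was 0.15 under the deposited scaling. The chaperone Calr differed by 0.38 ± 0.09, the transporter subunit Tap2 by 0.23 ± 0.15 and the proteasome activator Psme1 by 0.12 ± 0.09 (SE), and none of these lists had a member past the test.

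Macrophage markers moved with the interferon-stimulated genes across arrays. Of 12 markers 11 were tested, and control replicate 1 was the lowest array for all 11. Their list level was -1.36, 0.66 and 0.64 in controls and 0.32, 0.13 and -0.39 in knockouts, and their summed signal ran from 2762 to 10950 in controls and from 7017 to 8882 in knockouts. No marker was at 0 on an array. Lyz2, Cd68 and Cd14 differed by 0.58 ± 0.50, 0.31 ± 0.52 and -0.25 ± 0.70 (SE), and the list by a median of -0.06, with 5 higher and 6 lower. Without control replicate 1, all 11 markers lay lower in knockout arrays (median -0.62), as did all 32 interferon-stimulated genes. Without control replicate 2 all 11 markers lay higher (median 0.30), while 27 of the 32 interferon-stimulated genes lay lower. Without control replicate 3 all 11 markers again lay higher (median 0.27), with 22 interferon-stimulated genes lower.

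Leukocyte markers gave the same picture. Ptprc, which encodes the leukocyte antigen CD45, had signals of 80.8, 389 and 420 in controls and 269, 193 and 203 in knockouts, and control replicate 1 was the lowest array for all 6 leukocyte markers. In control replicates 2 and 3 the macrophage list level was 0.66 and 0.64 and the member level 0.54 and 0.86. In bulk RNA fewer cells of a type and less RNA per cell cannot be told apart, and the part of these cells in the levels of the interferon-stimulated genes was not tested.

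Macrophages and leukocytes were the only marker lists, of those tested, for which control replicate 1 was the lowest array for most genes. Of 10 lymphocyte markers with a probe set 0 passed the filter, and their summed signal stayed between 53.5 and 78.0. Skeletal muscle markers were high in both control replicates 1 and 3 (list level 2.25 and 2.22) and low in control replicate 2 (-3.85). Osteocyte markers were lowest in control replicate 2 (-0.28) and highest in control replicate 3 (0.34), and neutrophil markers were highest in control replicate 1 (0.42). Of 14 chondrocyte markers 12 lay higher in knockout arrays (median 1.24), 10 of them with separated groups, where 9.23% of all genes were separated upward. Of 10 dendritic cell and MHC class II genes with a probe set, 6 fell under the filter, with signals from 0.5 to 24.4. The 4 tested ones lay higher, with H2-Ab1 at 0.84 ± 0.12 (SE, limma adjusted p = 0.160). All 11 pericyte and smooth muscle genes lay lower (median -0.46). None of these markers passed the test, and their part in the levels of the interferon-stimulated genes was not tested.

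**Figure D5:**
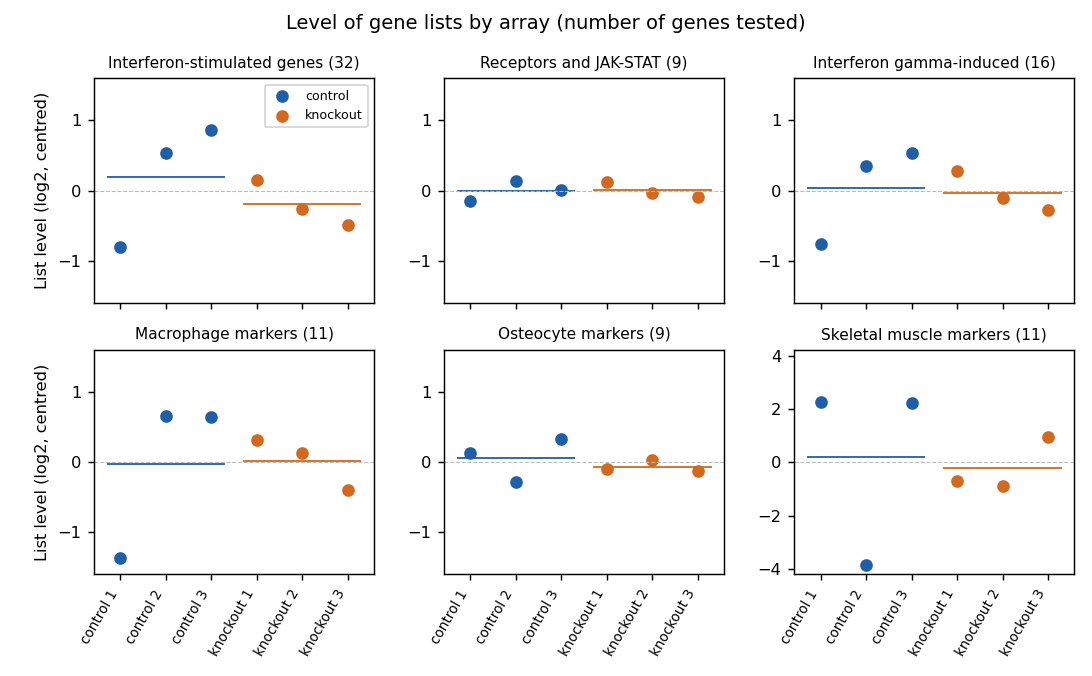
Level of 6 gene lists on each array, as the mean over tested genes of log2(signal + 16) centred per gene (log2 units, points are arrays, lines are group means, the muscle panel has a wider axis). Interferon-stimulated genes and macrophage markers share control replicate 1 as their lowest array (-0.80 and -1.36), while receptors and JAK-STAT genes stay between -0.15 and 0.13.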

How the data were processed

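The members and gene lists were chosen with earlier results of these data known. The authors deposited a linear intensity for each probe set and array. The submitters' processing notes name GCOS, without a version; the background correction, probe summary and scaling are unstated in the sources used here. No detection calls were used. Of the signals on an array, 38.6% to 46.9% were below 16. Precision is limited by the number of arrays.

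The 45101 probe sets included 64 controls, which were dropped. By the platform annotation 34945 named 1 gene, 932 several and 9160 none, and 34741 symbols were updated through RefSeq. Log2(signal + 16) was quantile normalised, each gene was represented by its brightest probe set, and the lowest 40% of genes by mean (under 5.37) were left out. The genotypes were compared by limma 3.58.1 in R 4.3.3 (lmFit, eBayes with trend, 2-sided, Benjamini-Hochberg at 0.05 over 10916 genes). No exact permutation test of 3 arrays against 3 can give a 2-sided p under 0.1.

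Values on every array are printed for the 3 transcription factors and, per role, for the member with the smallest p and that with the highest mean. Of other lists up to 3 genes with the smallest p are named, and a few fixed genes. On simulated data with 10916 genes the fit recovered 32.7% of genes changed 1.5-fold, 70.5% of 2-fold and 93.4% of 4-fold, with 5.9 false calls a run. These shares are for genes in general, whose median SE was 0.14, and do not carry over to the members, whose median SE was 0.40. The simulated noise was independent from gene to gene, with the same SD in both groups. On the arrays the SD was larger in controls for 67.6% of all genes, so the shares may not hold for these data.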

Additional observations from a re-analysis of the deposited data

How the results depend on the processing

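In all 16 alternatives, 0 members passed the threshold (limma, Benjamini-Hochberg) in either direction, and the member median stayed below 0 (-0.51 to -0.26, and -0.81 to -0.10 with 1 array left out). Members with separated groups, 2 in the reported fit, were 1 with the deposited scaling, median centring, the filter of 60% or the mean of all probe sets, and 2 to 27 with 1 array left out, 27 being without control replicate 1. Under the deposited scaling the median of all genes was 0.14, that of receptors and JAK-STAT genes 0.16 and of negative regulators 0.23, and the differences were 0.0092 for Irf7, 0.032 for Gbp2 and 0.15 for B2m. B2m was 0.053 with median centring, 0.0057 with the mean of all probe sets and 0.030 with array weights, and Ifnar2 was 0.072 with the mean of all probe sets. With 1 array left out, the difference changed sign for 12 members, running from -0.037 to 0.18 for Irf9, -0.41 to 0.15 for Irf7, -0.69 to 0.19 for Trim25, -1.04 to 0.24 for Mx1, -0.72 to 0.14 for Mx2, -0.75 to 0.42 for Gbp2, -0.68 to 0.17 for Gbp3, -1.22 to 0.11 for Rtp4, -0.27 to 0.36 for Lgals3bp, -0.51 to 0.076 for Tap1, -0.57 to 0.16 for Psmb8 and -0.23 to 0.11 for Psmb9. Among the other genes it ran from -1.30 to 0.11 for Ifnb1, -0.058 to 0.97 for Lyz2, -0.38 to 0.68 for Cd68, -1.14 to 0.29 for Cd14, -1.04 to 0.17 for Ptprc and -0.18 to 0.14 for B2m. The cause of these changes was not tested.

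Over 10916 genes the deviations of same-numbered arrays correlated at -0.38, 0.10 and -0.04 for numbers 1, 2 and 3. Only knockout replicate 2 correlated best with its own number. Control replicate 1 correlated best with knockout replicate 3 (0.42), and control replicates 2 and 3 with knockout replicate 1 (0.26 and 0.09). The sources used here do not state that the numbers pair animals, so no pairing was used in the reported fit. With 3 arrays per group that differ in content, these correlations cannot decide whether animals were paired. With the replicate block 0 members were lower and 0 higher, and the member median was -0.39.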
